A study of Rattus norvegicus with 192 samples.

Results

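The cytosolic ribosomal protein genes encode the protein part of the ribosome outside mitochondria. Their members were taken as every row present in both count tables with a symbol of the form Rpl or Rps followed by a number and at most 1 further letter a, x, y or l, together with Rplp0, Rplp1, Rplp2 and Rpsa, and without the Rps6k kinases. This gave 78 of 17483 genes, 47 of the large subunit (Rpl) and 31 of the small subunit (Rps). The study measured polyadenylated RNA of adult male wild-type Crl:CD(SD) rats in 4 tissues, the hypothalamus, the pituitary, the thyroid and the liver, by 3′ bulk RNA barcoding, in which each RNA sample receives a short barcode at reverse transcription and is pooled with the others of its plate. Rats received, by daily gavage for 7 days from postnatal day (PD) 56 to PD 62, corn oil as vehicle, the antibiotic vancomycin at 8 mg per kg and day, the perfluorinated surfactant PFOS at 3 mg per kg and day, or both agents at these doses, here called the combination. Each tissue and treatment had 12 libraries, 192 in all. The labels number the libraries within a tissue and do not state whether equal numbers in different tissues mark 1 animal.

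A ribosome is built from a small subunit, which reads the messenger RNA, and a large subunit, which joins the amino acids. Each ribosomal protein is normally present once per ribosome, with the acidic stalk proteins Rplp1 and Rplp2 as known exceptions, so the genes of both subunits are expressed together. Their messenger RNAs carry a terminal oligopyrimidine (TOP) tract, a run of C and T bases at the 5′ end through which their translation responds to nutrients and to mTOR signalling. Ribosomal protein messenger RNAs are short and among the most abundant in most tissues.

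Promoters were searched for the pyrimidine letters of the class and for cores known from housekeeping promoters. RefSeq promoters of the GRCr8 assembly, which run from 250 bases before to 50 after each annotated start, were matched by symbol for 62 of the 78 genes. The letters CTTTCC or CTTTTC, looked for on the gene's own strand in the 100 bases around the start, were present in 31 of these 62 promoters (50.0%) and in 8.15% of 27457 promoters in the table. CCGGAAG, the core of sites for ETS factors such as GABP, was present on either strand within the 300 bases in 32.3% of the matched promoters against 9.22% of all. GGGCGG, an Sp1 core, was present on either strand in 58.1% against 34.9%. AAGATGG, a YY1 core, searched likewise, was in 14.5% against 7.3%, and TATAAA, on the gene's own strand within the 100 bases, in 6.45% against 3.25%. A match is a description of the letters and not a measured binding site. The 4 windows printed here, of 50 bases before to 30 after the annotated start, were chosen for their place in the results: Rpsa and Rplp1 were lower after PFOS in the hypothalamus, Rps12 had the largest fall there, and Rpl3 was called in no treatment comparison. They lie at chr8:128728829-128728908 (plus strand) for Rpsa, chr8:71290843-71290922 (minus strand) for Rplp1, chr1:23500025-23500104 (plus strand) for Rps12 and chr7:113507961-113508040 (minus strand) for Rpl3. Capitals mark CTTTCC and, in Rpsa, also CCGCCC, the reverse complement of GGGCGG.
Rpsa: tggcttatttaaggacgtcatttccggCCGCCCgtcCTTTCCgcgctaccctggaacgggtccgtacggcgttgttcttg
Rplp1: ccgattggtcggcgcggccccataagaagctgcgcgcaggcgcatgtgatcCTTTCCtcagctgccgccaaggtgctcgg
Rps12: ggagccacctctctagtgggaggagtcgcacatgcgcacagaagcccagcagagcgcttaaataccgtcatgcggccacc
Rpl3: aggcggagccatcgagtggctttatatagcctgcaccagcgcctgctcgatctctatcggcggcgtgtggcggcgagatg
The windows of Rps12 and Rpl3 hold none of the letters searched. Among promoters with a CTTTCC or CTTTTC match the median log2 fold change of the combination against vehicle in the hypothalamus was -0.46 (31 genes), and among those without it -0.33 (29 genes), given as a description with no test.

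Libraries with under 100000 total counts were left out, which removed 14 (11 liver, 2 thyroid, 1 hypothalamus) and left 178. Median depth by group ran from 283086 counts (liver, vehicle) to 875790 counts (hypothalamus, vehicle). Depth was unequal between treatments. In the hypothalamus the median total was 875790 under vehicle, 751641 under vancomycin, 662537 under PFOS and 531350 under the combination, and in the thyroid it was 841097, 555940, 484696 and 383436 in the same order. In the pituitary and liver the vehicle groups were the shallowest. Each treatment filled its own row of a plate, hypothalamus and thyroid used the same 48 wells and barcodes with the same treatments, and pituitary and liver used the other 48, so treatment, plate row and barcode set cannot be told apart. Defining markers matched the pituitary, thyroid and liver labels, and the hypothalamus list did not separate hypothalamus from pituitary. The hypothalamus and pituitary lists both hold Pomc, so each list counts a gene of the other. How much of these shares is Pomc was not tested. Pituitary hormone genes took 31.4% to 45.2% of counts in pituitary vehicle libraries, liver genes 11.9% to 16.8% in liver vehicle libraries, and follicle genes 3.89% to 7.49% in thyroid vehicle libraries, which also held 3.59% to 6.31% of counts in parathyroid and C cell genes. Hypothalamus markers took 0.890% to 1.18% in the hypothalamus under vehicle and 0.171% to 3.12% in the pituitary. Pituitary hormone genes took 0.488% to 0.982% in the hypothalamus, and follicle genes 0.0892% to 0.300% in the liver.

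Under vehicle, ribosomal protein genes took the largest share of counts in the thyroid and the smallest in the liver. Their summed share had a median of 15.9% (12.8% to 18.5%, n = 12) in the thyroid, 11.3% (9.54% to 13.1%, n = 12) in the hypothalamus, 8.85% (7.06% to 16.7%, n = 12) in the pituitary and 4.06% (3.03% to 5.99%, n = 9) in the liver. The thyroid range overlapped that of the hypothalamus and, through 1 library, of the pituitary, whereas all liver vehicle libraries lay below all others. In CPM, counts scaled to a common library total, 64 of 76 members had their highest median in the thyroid and 70 their lowest in the liver. In bulk tissue, fewer cells of a type and less RNA per cell cannot be told apart. CPM is also relative to whatever else a tissue expresses. After TMM scaling, which sets most genes equal between libraries, edgeR's quasi-likelihood test with Benjamini-Hochberg adjustment over 6560 genes called 66 of 76 members higher and 1 lower in thyroid than in liver (median log2 fold change 0.88; 38.2% of all genes were called higher and 26.6% lower).

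**Figure D1:**
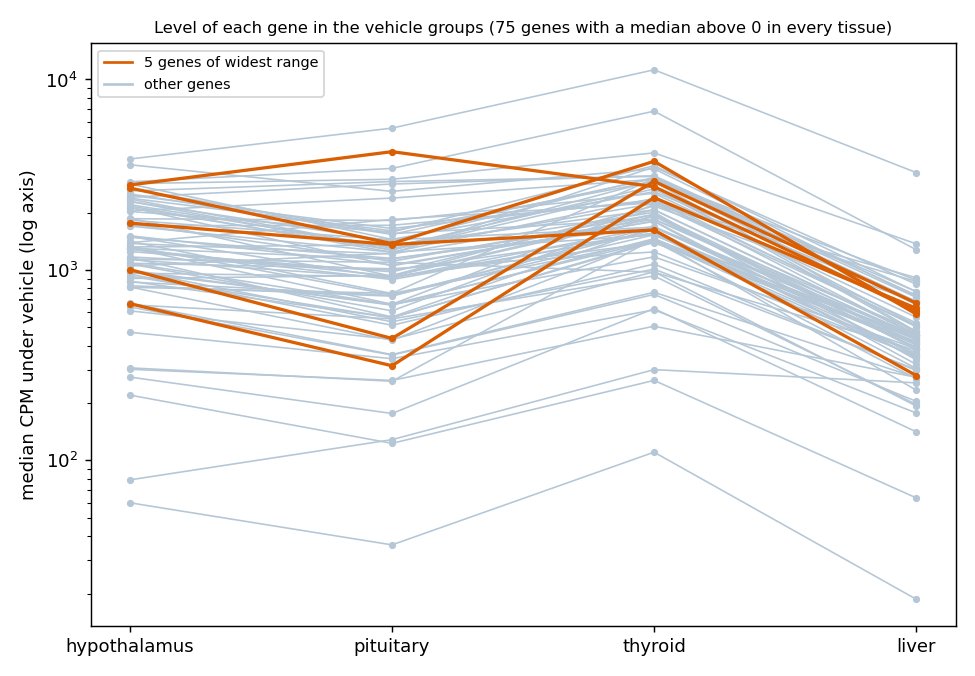
Median CPM of each gene under vehicle (log axis) in the 4 tissues, 1 line per gene for the 75 genes with a median above 0 in every tissue; orange lines are the 5 genes of widest range between tissues (Rpl38, Rpl3, Rps29, Rpl26 and Rpl17). Most lines peak in the thyroid and are lowest in the liver, while Rpl3 peaks in the pituitary at 4177 CPM.

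The other tissue pairs differed less on median, and several depended on how depth was handled. Against the thyroid, 60 members were lower and 2 higher in the hypothalamus (median -0.69; 37.9% and 38.2% of all genes), and 46 lower and 4 higher in the pituitary (median -0.50; 35.4% and 32.9%). Hypothalamus against pituitary gave 32 lower and 3 higher members (median -0.20; 30.9% and 37.3%). Against the liver, 42 members were higher and 12 lower in the pituitary (median 0.41; 39.7% and 30.9%), and 29 higher and 16 lower in the hypothalamus (median 0.13; 42.6% and 32.9%). With log2 depth as a covariate the last split became 15 higher and 39 lower (median -0.29), and at a minimum depth of 500000 counts 12 higher and 26 lower (median -0.27). Pituitary against thyroid became 15 higher and 31 lower with the covariate, and 13 higher and 19 lower (median 0.03) at the higher minimum, which left 3 vehicle libraries in the pituitary and 3 in the liver. Hypothalamus against pituitary became 0 higher and 64 lower with the covariate (median -0.63), and thyroid against liver 39 higher and 1 lower at the higher minimum. Without the covariate and at the lower minimum depth, between 26.6% and 42.6% of all genes were called in each direction of these pairs. In that fit the members' counts stood out from the background mainly in thyroid against liver and in hypothalamus against thyroid. Shares of all genes called with the covariate or at the higher minimum are not given here. Whether the members stand out from the background under those settings was not tested. The covariate has a depth slope common to all tissues. Within tissues the slopes differed, with a median for large subunit genes of 0.54 in the pituitary and 0.04 in the liver. Depth also differed between tissues, so the splits with the covariate cannot separate tissue from depth.

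Rpl41, which encodes the shortest protein of the ribosome, had the highest vehicle median in all 4 tissues. Its CPM was 3179.6 to 4113 in the hypothalamus (median 3822), 4205 to 6259 in the pituitary (5553), 8572 to 12995 in the thyroid (11238) and 2451 to 4927 in the liver (3245). The ranges of thyroid and hypothalamus did not overlap. Rpl35 was also among the 5 highest in every tissue. These included Rpl19 and Rps16 in the hypothalamus, Rpl3 and Rps6 in the pituitary, Rpl26 and Rps26 in the thyroid, and Rps18 and Rplp0 in the liver. The lowest detected members included Rpl37a and Rps10 in all 4 tissues, Rpl37a with medians from 18.7 CPM (liver) to 110.4 CPM (thyroid). These are counts of transcript ends that were not divided by length, and reads shared with pseudogenes or copies may be lost or split, so an order between genes is an order of counts only.

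The 5 members with the widest range between tissues, among those above 0 in every tissue, were Rpl38, Rpl3, Rps29, Rpl26 and Rpl17. Rpl38, a large subunit protein known for a role in translating Hox messenger RNAs, had a median of 2397 CPM in the thyroid and 314 CPM in the pituitary, a 7.63-fold range. Rps29 had 2921 CPM in the thyroid and 437 CPM in the pituitary. Rpl3, which lies close to the peptidyl transferase centre, had its highest median in the pituitary (4177 CPM) and its lowest in the liver (607 CPM). It was higher in pituitary than in thyroid by 0.93 ± 0.11 (SE) on the log2 scale (edgeR, adjusted p = 2.3e-11), a comparison in which 46 other members were lower. Rpl26 ran from 587 CPM (liver) to 3716 CPM (thyroid), and Rpl17 from 279 CPM (liver) to 1762 CPM (hypothalamus).

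Among the paralogs, Rpl39l differed most between tissues. Rpl39l, a copy of Rpl39 known from testis and cancer cells, had 135 to 288 CPM in the pituitary vehicle libraries (median 207), 1.22 to 9.07 in the hypothalamus (4.88), 0.957 to 13.4 in the thyroid (4.86) and 0 in all 9 liver libraries. The pituitary range lay above all others. Rpl39l was 5.88 ± 0.18 (SE) lower in hypothalamus than in pituitary on the log2 scale (edgeR, adjusted p = 2.12e-34), and its pooled pituitary level was at least 316-fold higher than the liver floor of 3 counts over the group. Rpl39l was not called for treatment in the pituitary, with log2 fold changes of 0.02 ± 0.10 (SE) for PFOS and -0.04 ± 0.10 for the combination against vehicle. Rps27l, a p53-responsive copy of Rps27, had medians of 79.0 CPM in the hypothalamus, 128 in the pituitary, 299.6 in the thyroid and 255 in the liver. Its order between thyroid and liver depends on the scale: the CPM median was higher in the thyroid, and the TMM-scaled log2 difference was -0.77 ± 0.13 (SE, edgeR adjusted p = 2.49e-07). Rps4x, the X-linked form of a small subunit protein, followed the common order, with medians of 2007 CPM in the thyroid, 1376 in the hypothalamus, 1214 in the pituitary and 337 in the liver. Rpl3l, the form of heart and skeletal muscle, and Rps9 had too few counts to test in any tissue (at most 27 counts over all libraries of a tissue), and Rps19 and Rpl35a are not among the 78 genes. Rows named Rps9l1, Rps19l2 and Rpl35al1, which RefSeq lists both as genes of their own and as synonyms of Rps9, Rps19 and Rpl35a, lie outside the naming rule and in no summed share.

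In the hypothalamus, ribosomal protein genes were lower in both groups that received PFOS. Their summed share was 9.54% to 13.1% under vehicle (median 11.3%, n = 12), 9.10% to 12.4% under vancomycin (11.5%, n = 12), 7.15% to 11.01% under PFOS (9.50%, n = 12) and 7.77% to 10.6% under the combination (9.07%, n = 11). The groups overlapped. PFOS against vehicle gave 50 of 75 tested members lower and none higher (median log2 fold change -0.30), where 3.21% of 6596 genes were called lower. The combination gave 69 of 75 lower against vehicle (median -0.42; 5.14% of all genes) and 67 of 75 lower against vancomycin (median -0.42; 4.88%), with none higher in either. Both subunits took part: under the combination against vehicle, 40 of 45 large subunit genes (median -0.42) and 29 of 30 small subunit genes (median -0.47) were lower. The PFOS and combination comparisons against vehicle share the same vehicle libraries. PFOS against vehicle and the combination against vancomycin share none, and 49 members were called in both, 98.0% of the first list and 73.1% of the second. With 67 of 75 members in the second list, most of any list of members would be shared.

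**Figure D2:**
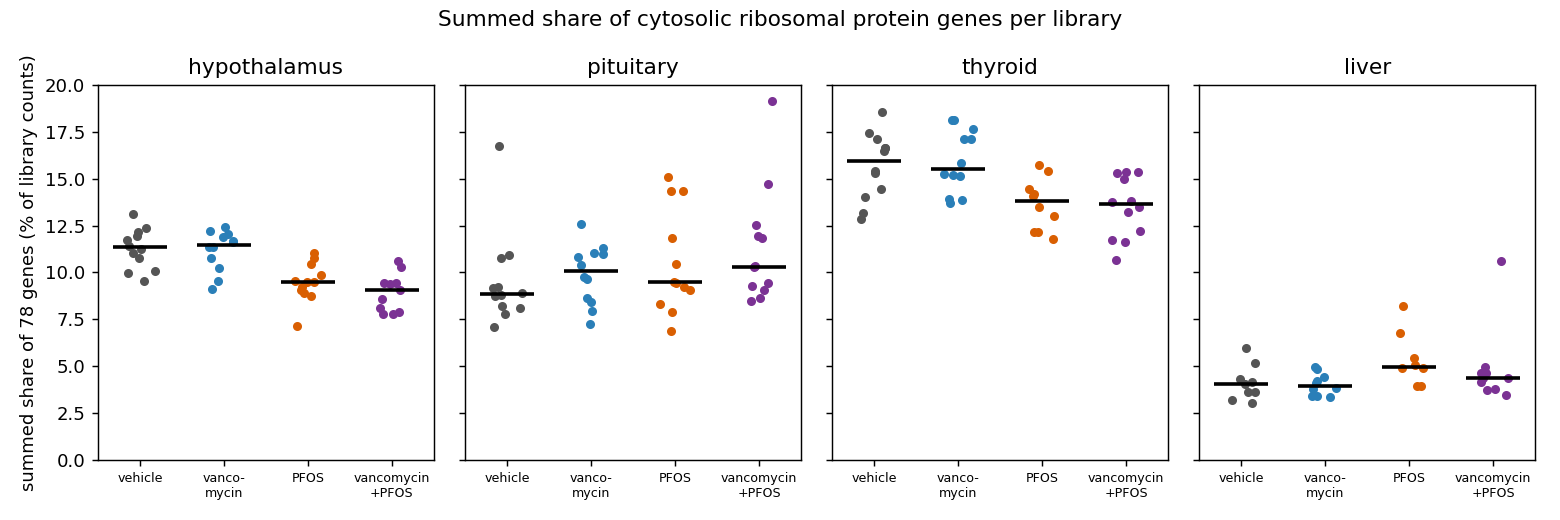
Summed share of the 78 genes in each library, in percent of its counts, by tissue and treatment; points are libraries and bars are medians. Hypothalamus medians fall from 11.3% under vehicle to 9.07% under the combination, thyroid medians from 15.9% to 13.6%, and single pituitary and liver libraries reach 19.1% and 10.6%.

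Among small subunit genes, Rps12, whose protein sits on the head of the subunit, had the largest fall. Its CPM was 372 to 1131 under vehicle (median 639), 388 to 1078 under vancomycin (763), 344 to 685 under PFOS (418) and 328 to 574 under the combination (371). The groups overlapped at their lower ends, and the highest values were under vehicle and vancomycin. Its log2 fold change was -0.73 ± 0.17 (SE) for PFOS against vehicle (edgeR, adjusted p = 0.0181) and -0.91 ± 0.18 for the combination (adjusted p = 0.000914). Rpsa, also known as the laminin receptor precursor, had 641 to 1623 CPM under vehicle (median 996), 632 to 1355 under vancomycin (1114), 496 to 1066 under PFOS (724) and 527 to 818 under the combination (651). It fell by 0.52 ± 0.13 under PFOS and by 0.72 ± 0.14 under the combination. Rps2 fell by 0.62 ± 0.18 and 0.73 ± 0.19, and Rps4x by 0.46 ± 0.11 and 0.65 ± 0.11. Rps27a, made as a fusion with ubiquitin, fell by 0.41 ± 0.12 and 0.59 ± 0.12. Rps6, the target of S6 kinase below mTOR, moved least of these: -0.18 ± 0.06 under PFOS (adjusted p = 0.0504, not called) and -0.23 ± 0.06 under the combination (adjusted p = 0.00647).

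In the large subunit, all 3 genes of the stalk that recruits elongation factors were lower. Rplp1 had 1619 to 3202 CPM under vehicle (median 2283), 1627 to 2875 under vancomycin (2517), 1376 to 2230.03 under PFOS (1759) and 1323 to 2052 under the combination (1571). Its log2 fold change was -0.44 ± 0.11 (SE) under PFOS and -0.59 ± 0.11 under the combination (edgeR, adjusted p = 0.0199 and 0.000473). Rplp2 fell by 0.43 ± 0.11 and 0.52 ± 0.11, and Rplp0, the stalk base, by 0.18 ± 0.05 and 0.28 ± 0.06. Rpl39, at the nascent peptide tunnel, had 197 to 434 CPM under vehicle (median 306), 168 to 381 under vancomycin (340.1), 141 to 275 under PFOS (213) and 134 to 259 under the combination (187), and fell by 0.55 ± 0.14 and 0.71 ± 0.14. Rpl10, added late in subunit assembly, fell by 0.49 ± 0.12 and 0.59 ± 0.13, and Rpl30 by 0.53 ± 0.14 and 0.65 ± 0.14. Rpl24 fell by 0.67 ± 0.13 and Rps15 by 0.63 ± 0.11 for the combination against vancomycin.

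Rpl7 had a moderate fall, a narrow spread and the smallest adjusted p of the members for PFOS. Its CPM was 960.04 to 1339 under vehicle (median 1132), 808 to 1159 under vancomycin (1025), 699.96 to 1044 under PFOS (873) and 809 to 997 under the combination (871). Only the upper ends of both groups given PFOS reached into the vehicle range. The log2 fold change was -0.37 ± 0.06 (SE) for PFOS (edgeR, adjusted p = 0.000129) and -0.41 ± 0.06 for the combination (adjusted p = 1.55e-05).

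A few members were not called in the hypothalamus in any treatment comparison. Rpl3 had 2382 to 3365 CPM under vehicle (median 2794), 2495 to 3081 under vancomycin (2852), 2227 to 3199 under PFOS (3002) and 2768 to 3591 under the combination (3024), with log2 fold changes of 0.08 ± 0.05 and 0.11 ± 0.06 (SE). Rpl41 had 3179.6 to 4113 CPM under vehicle and 3309 to 4057 under the combination, a log2 fold change of -0.12 ± 0.05 (edgeR, adjusted p = 0.143). Rpl35, Rpl14 and Rps27l were also not called for the combination against vehicle. Rps14 passed there only (-0.16 ± 0.05).

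Vancomycin alone gave no call. Against vehicle, edgeR called 0 members in the hypothalamus (0% of all genes; 1 at an unadjusted p under 0.05; DESeq2 0), and the median log2 fold change was -0.0045. The combination did not differ detectably from PFOS: edgeR and DESeq2 each called 0 members (0% of all genes; 8 at an unadjusted p under 0.05 by edgeR), with a median of -0.13. The interaction of PFOS and vancomycin also gave 0 by both tools (0% of all genes; 3 at an unadjusted p under 0.05; median -0.13).

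The thyroid had lower ribosomal protein genes under the combination. The summed share was 12.8% to 18.5% under vehicle (median 15.9%, n = 12), 13.7% to 18.1% under vancomycin (15.5%, n = 12), 11.8% to 15.7% under PFOS (13.8%, n = 10) and 10.7% to 15.4% under the combination (13.6%, n = 12), with overlapping groups. The combination gave 43 of 75 members lower against vehicle (median -0.36; 1.85% of 5091 genes) and 52 of 75 lower against vancomycin (median -0.39; 2.40%), and none higher. PFOS alone against vehicle had a median of -0.30, close to that in the hypothalamus, but edgeR called 0 members (0.0589% of all genes; 57 at an unadjusted p under 0.05), and DESeq2 called 2. The share of all genes at that unadjusted level was not counted, so the 57 cannot be set against a background. Vancomycin against vehicle gave 0 (0% of all genes; 0 at an unadjusted p under 0.05; DESeq2 0), as did the combination against PFOS and the interaction (both 0% of all genes; 1 member each at an unadjusted p under 0.05; DESeq2 0).

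All 43 members called against vehicle and all 52 called against vancomycin in the thyroid were also called in the same comparison of the hypothalamus, where they made up 62.3% and 77.6% of the calls. Since 69 and 67 of 75 members were called in the hypothalamus, most of any list of members would overlap, and both tissues share wells, barcodes and the order of depth by treatment. Over both tissues and the 5 comparisons with calls, 37 members were called in all 5. They included Rps12, Rpsa, Rps27a, Rps4x, Rps3, Rps7, Rps15, Rps20, Rpl5, Rpl10, Rpl11, Rpl24, Rpl30, Rpl39, Rplp1 and Rplp2. The 5 comparisons were taken because they had calls, and within a tissue they share vehicle or combination libraries. A call in all 5 is therefore not 5 separate results, and the share of all genes called in all 5 was not counted. No comparison called 9 members, 3 of which (Rpl3l, Rps9, and, outside the pituitary, Rpl39l) could not be tested. Thyroid Rps12 had 488 to 1406 CPM under vehicle (median 743), 489.7 to 1219 under vancomycin (799), 433 to 780.5 under PFOS (526) and 373 to 700.1 under the combination (517). Its log2 fold change for the combination was -0.75 ± 0.18 (SE) against vehicle and -0.73 ± 0.18 against vancomycin (edgeR, adjusted p = 0.0157 and 0.0156). Rpl39 fell by 0.68 ± 0.18 and 0.79 ± 0.18, and Rpl24 by 0.60 ± 0.13 and 0.65 ± 0.13. Rpl30 fell by 0.58 ± 0.14 against vehicle, and Rpl12 by 0.72 ± 0.17 against vancomycin. Rps6 was called against vancomycin only (-0.31 ± 0.08), Rplp0 in neither comparison, and Rpl3 had log2 fold changes of 0.11 ± 0.07 and 0.00 ± 0.07.

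Library depth moved with these results. With log2 total counts added as a covariate, the members called lower in the hypothalamus went from 50 to 1 for PFOS against vehicle (Rpl7; 0.0303% of all genes), from 69 to 8 for the combination against vehicle (0.637%) and from 67 to 51 for the combination against vancomycin (1.49%). The medians became -0.19, -0.22 and -0.29. The 8 included Rpl7, Rpl23a, Rpl34, Rplp0, Rps16, Rps23 and Rps27. In the thyroid the calls went from 43 and 52 to 0 and 0 (0% of all genes each), with medians of -0.07 and -0.22, and 2 and 54 members were at an unadjusted p under 0.05 (DESeq2 was not run with the covariate). The share of all genes at that unadjusted level was not counted. Depth and treatment are partly confounded in both tissues, so a covariate can also remove part of any treatment difference.

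**Figure D3:**
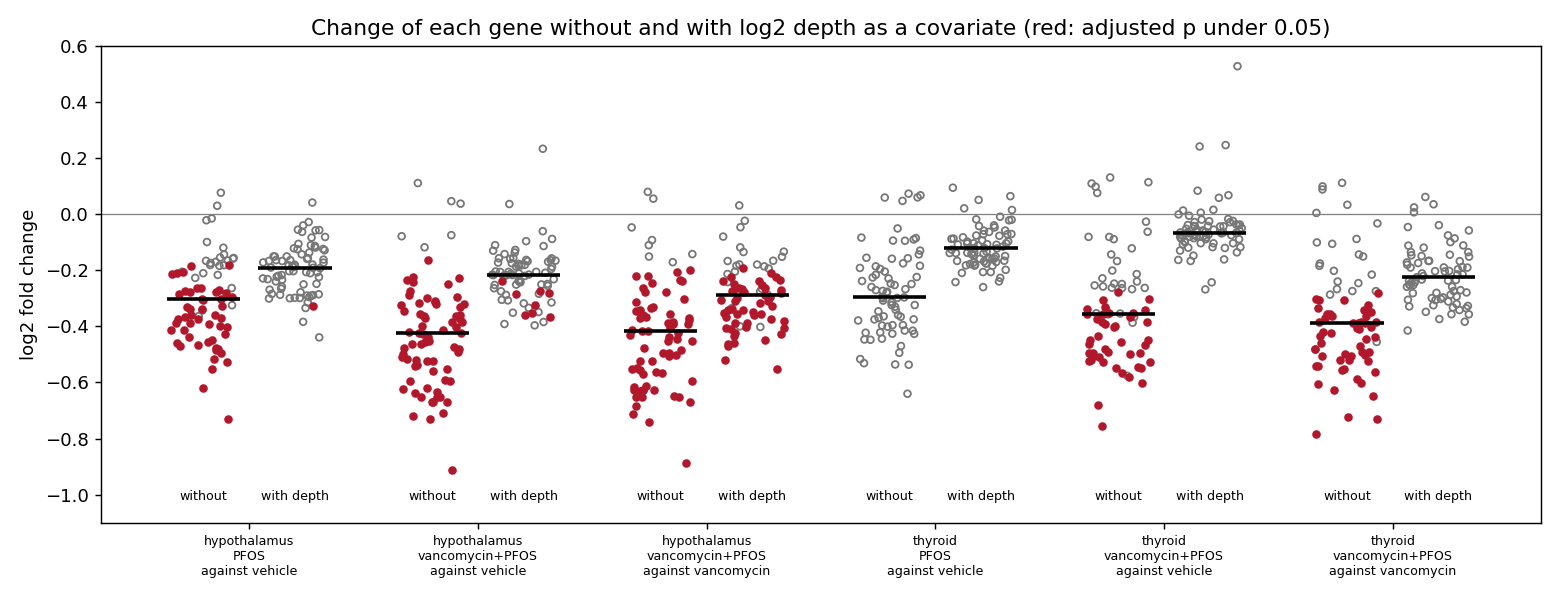
Log2 fold change of each gene (points) in 6 comparisons, without and with log2 library depth as a covariate; red points passed edgeR's adjusted p threshold of 0.05 and bars are medians. Medians lie nearer 0 with the covariate in all 6 comparisons; red points remain for 51, 8 and 1 genes in the hypothalamus and for 0 in the thyroid.

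Thinning to a common total, or keeping only libraries of like depth, gave fewer calls in the 5 comparisons that had calls. Thinning discards counts and does not match libraries by their original depth. Both settings leave fewer counts or libraries, so the lower numbers of calls cannot be assigned to depth. After each library was thinned to the lowest total of its tissue (172700 counts in the hypothalamus, 208981 in the thyroid), edgeR called 18, 47 and 38 members lower in the 3 hypothalamus comparisons and 29 and 41 in the 2 thyroid comparisons, and 1 for PFOS in the thyroid. Among libraries within the range of totals common to both groups, 0, 0 and 1 passed in the hypothalamus and 0 and 0 in the thyroid, with 3 to 10 libraries per group. The medians there were -0.20, -0.23 and -0.32 in the hypothalamus and -0.06 and -0.19 in the thyroid. Shares of all genes called after thinning or in the common range are not given here. A loss of calls particular to the members cannot be told from a loss over all genes. Rpl7 kept a fall of 0.33 ± 0.06 (SE) under PFOS with the covariate (edgeR, adjusted p = 0.00102), and of 0.32 under the combination (adjusted p = 0.0099).

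Within treatments, deeper libraries had higher CPM of most members. In a fit of log2 depth beside treatment, slopes were positive and passed edgeR's test for 58 of 75 members in the hypothalamus (11.6% of all genes; median change 0.27 on the log2 scale per doubling of depth), 72 of 76 in the pituitary (22.1%; median 0.56), 56 of 75 in the thyroid (9.09%; median 0.29) and 2 of 75 in the liver (2.98%; median 0.04). Negative slopes passed for 1 member of the hypothalamus and 2 of the thyroid, among them Rpl41 in the thyroid. The share of all genes with a negative slope that passed is not given here. Rps12 had slopes of 0.64 ± 0.11, 1.03 ± 0.09 and 0.62 ± 0.11 (SE) in hypothalamus, pituitary and thyroid, and Rps2 of 0.69 ± 0.12, 0.80 ± 0.08 and 0.55 ± 0.12. Rpl3 had -0.10 ± 0.04, 0.01 ± 0.03 and -0.09 ± 0.05, and Rpl7 0.11 ± 0.04, 0.31 ± 0.03 and 0.19 ± 0.06. Without the deepest pituitary library (combination replicate 48, 2804779 counts, a share of 19.1%, and 20.05% of counts in pituitary hormone genes), 74 of 76 pituitary slopes were positive and passed. Without the liver library of highest share (combination replicate 42), 24 liver slopes passed in place of 2 (median 0.12).

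**Figure D4:**
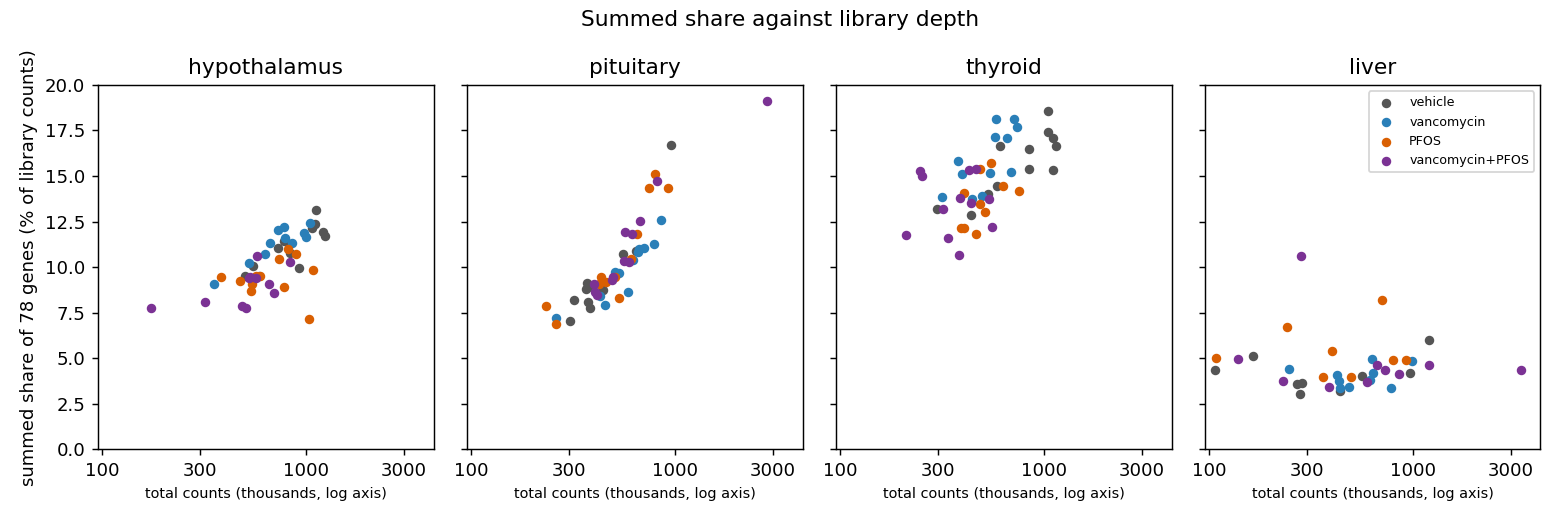
Summed share of the 78 genes against total counts (log axis) for each library, coloured by treatment, in 4 tissues. The pituitary points span 6.88% to 19.1% and are higher in deeper libraries, hypothalamus and thyroid points climb less steeply, and the liver points show little relation to depth.

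Members with steeper depth slopes in the pituitary had larger falls in the hypothalamus and the thyroid. Across 75 members, the pituitary depth slope had a Spearman correlation of -0.92 with the log2 fold change of the combination against vancomycin in the hypothalamus, -0.91 with that in the thyroid, and -0.83 with PFOS against vehicle in the hypothalamus. These comparisons share no libraries with the pituitary, although hypothalamus and pituitary shared a plate. Pituitary slopes and hypothalamus slopes had 0.93, whereas pituitary slopes and liver slopes had 0.24. These are correlations across genes, which share libraries within a tissue and are not independent, and they are given as a description.

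**Figure D5:**
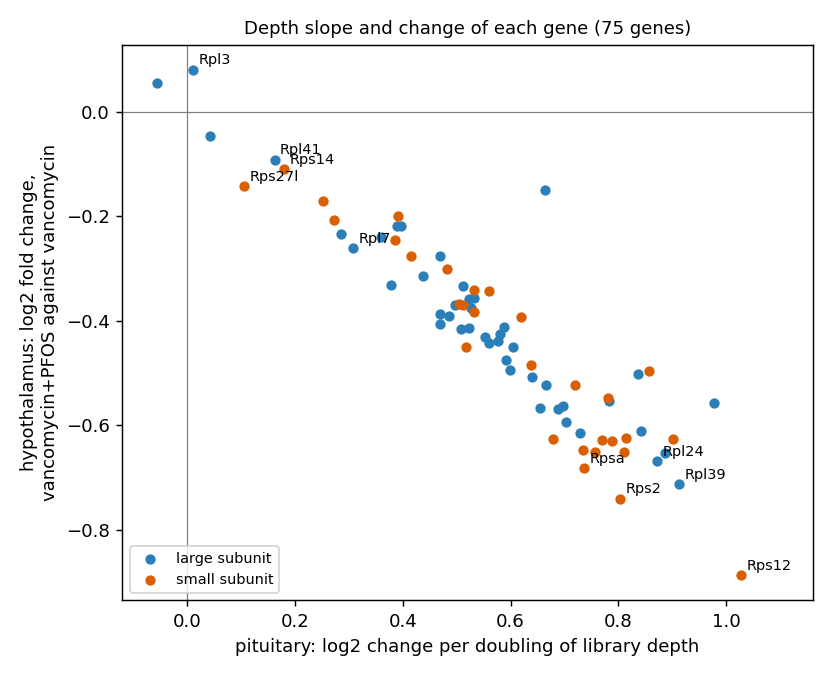
Each point is 1 of 75 genes: the log2 change per doubling of library depth in the pituitary (x axis) and the log2 fold change of the combination against vancomycin in the hypothalamus (y axis), coloured by subunit. The points fall along a descending line from Rpl3 to Rps12.

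In the pituitary no member was called in any treatment comparison by edgeR or DESeq2. The summed share had medians of 8.85% under vehicle, 10.1% under vancomycin, 9.46% under PFOS and 10.3% under the combination, and its range was wide within each group, from 6.88% to 15.1% under PFOS. Median log2 fold changes were 0.17 for PFOS against vehicle (1.19% of 4380 genes called; 1 member at an unadjusted p under 0.05), 0.21 for the combination against vehicle (1.37%; 2 members), 0.25 for the combination against vancomycin (0%; 7 members) and -0.04 for vancomycin against vehicle (0.0228%; 0 members). The combination against PFOS and the interaction gave 0 at that unadjusted level (both 0% of all genes; medians 0.03 and 0.08). Pituitary Rps12 had 269 to 1936 CPM under vehicle (median 357), 278 to 639 under vancomycin (402), 302 to 974 under PFOS (375) and 290 to 2213 under the combination (413). The highest values lie far above the medians.

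In the liver, the members lay higher on median under PFOS, without a call. The summed share was 3.03% to 5.99% under vehicle (median 4.06%, n = 9) and 3.37% to 4.97% under vancomycin (3.96%, n = 10). It was 3.96% to 8.22% under PFOS (4.97%, n = 8) and 3.44% to 10.6% under the combination (4.36%, n = 10), with overlapping groups. PFOS against vehicle had a median log2 fold change of 0.35, with 73 of 75 members above 0, 0 called by edgeR or DESeq2 (0.831% of 3250 genes) and 29 at an unadjusted p under 0.05. The shares of all genes above 0 and at that unadjusted level are not given here. The members varied together across liver libraries (median pairwise correlation 0.701), so 73 members above 0 are not 73 separate results. The medians with log2 depth as a covariate are not given for the liver. Rpl9 had 281 to 621 CPM under vehicle (median 455), 400.1 to 598 under vancomycin (450.2), 356 to 1442 under PFOS (589.7) and 369 to 3434 under the combination (513). Rps20 had 298 to 858 CPM under vehicle (median 430.4) and 418 to 1717 under PFOS (787), with overlapping ranges. The combination against vehicle had a median of 0.21 (0.769% of all genes; 10 members at an unadjusted p under 0.05) and against vancomycin 0.21 (0.923%; 5 members). Without the combination library of highest share these medians were -0.01 and 0.02. Vancomycin against vehicle (median -0.01; 0% of all genes; 0 members), the combination against PFOS (-0.17; 0%; 2 members) and the interaction (-0.16; 0%; 0 members) gave no call by either tool.

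Differences in the PFOS response between tissues were tested directly. The PFOS change in the thyroid was lower than that in the liver for 19 of 75 members (median difference -0.70 on the log2 scale; 0.758% of 5278 genes), among them Rps20 (-1.29 ± 0.28, SE), Rpl24 (-1.28 ± 0.34), Rps21 (-1.20 ± 0.27), Rps23 (-1.18 ± 0.26), Rps27a (-1.18 ± 0.29) and Rps4x (-0.96 ± 0.25). With log2 depth as a covariate, which has a slope common to both tissues, 5 passed. The change in the hypothalamus was lower than that in the pituitary for 2 of 76 (Rpl7, -0.45 ± 0.11, and Rpl4, -0.44 ± 0.12; 0.12% of 5820 genes), and for 0 with the covariate. Hypothalamus and thyroid did not differ detectably (0 members by edgeR, 0% of 7110 genes; 0 at an unadjusted p under 0.05; median -0.01; DESeq2 was not run on the differences).

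The members varied together within every tissue. After treatment means were removed, the median pairwise Pearson correlation between members across libraries was 0.764 in the hypothalamus, 0.908 in the pituitary, 0.794 in the thyroid and 0.701 in the liver. With depth also removed it was 0.683, 0.727, 0.744 and 0.726. Mitochondrial ribosomal proteins, which build the ribosome inside mitochondria, had 0.02 to 0.08 in the 4 tissues, and proteasome genes 0.03 to 0.09. These values share libraries and depth and differ in counts per gene, and carry no test.

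Some other genes of the translation machinery were also lower in the fits without log2 depth. Of 16 genes for elongation factors, initiation factors and related proteins known to carry a TOP tract, 6 were lower under PFOS, 12 under the combination against vehicle and 10 against vancomycin in the hypothalamus, with medians of -0.18, -0.25 and -0.24, and none was higher. Of all 6596 genes, 3.21%, 5.14% and 4.88% were lower in these comparisons. Eef1a1, which brings aminoacyl-tRNA to the ribosome, had a log2 fold change of -0.62 ± 0.11 (SE, edgeR adjusted p = 0.000347) for the combination against vehicle. Rack1, a scaffold on the small subunit, had -0.45 ± 0.08, and Eef2, the translocation factor, -0.22 ± 0.05. Fau, made as a fusion of a ubiquitin-like protein with a small subunit protein, had -0.43 ± 0.08. Of 69 mitochondrial ribosomal proteins 0, 0 and 2 were lower and 0, 3 and 4 higher, and of 38 proteasome genes 0, 0 and 1 were lower and 2, 4 and 4 higher, where 76, 198 and 194 of all 6596 genes were higher. The difference between these lists was not tested. Of 14 tested ribosome assembly factors 0, 3 and 2 were called, in both directions. The TOP class had positive depth slopes too, in 11 of 16 genes in the hypothalamus, 14 in the pituitary and 8 in the thyroid. Of all genes, 11.6%, 22.1% and 9.09% had positive slopes that passed in these tissues. The numbers of TOP genes tested in pituitary and thyroid are not given here, nor are TOP calls for treatment with log2 depth as a covariate.

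Markers of other cells were read beside these changes. In the hypothalamus the combination against vehicle gave 4 of 6 blood markers lower (median -0.55), with a summed share of 0.315% to 0.869% under vehicle and 0.306% to 0.651% under the combination. Of all genes, 5.14% were called lower there. In the same comparison 1 of 5 tested macrophage markers was lower (summed share 0.0192% to 0.0392% under vehicle, 0.0164% to 0.0296% under the combination), and 2 of 9 hypothalamus markers were lower (0.890% to 1.18%, and 0.861% to 1.13%). Of 6 tested pituitary markers 1 was lower (0.488% to 0.982%, and 0.492% to 0.728%). Pomc is in both the hypothalamus and the pituitary list. None of these lists had a marker at 0 in either group. Marker calls with log2 depth as a covariate are not given here, and the part of these lists in the result was not tested. In the thyroid combination comparisons no marker of follicle, parathyroid and C cells, liver, blood, macrophages or muscle was called. Follicle genes took 3.89% to 7.49% of counts under vehicle and 4.03% to 8.49% under the combination, parathyroid and C cell genes 3.59% to 6.31% and 2.04% to 7.26%, and blood genes 0.591% to 1.62% and 0.561% to 1.93%.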

How the data were processed

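The authors deposited raw counts per gene and library, whole numbers with totals that differ between libraries; per the submitters' processing notes the tool list holds BWA 0.7.4.4 and the build list rn6, and other steps, such as the handling of duplicate reads, are not given in the sources used here. The members and gene lists were chosen with earlier results of these data known. Libraries under 100000 counts were left out. Counts were tested per tissue with edgeR 4.0.16 in R 4.3.3 (filterByExpr with a minimum count of 10, TMM, robust quasi-likelihood fit over all 4 treatments, Benjamini-Hochberg adjustment over all genes, called at adjusted p under 0.05); DESeq2 1.42.0 was an alternative. CPM is a count scaled to a common library total. Errors of log2 fold changes are standard errors. Counts at an unadjusted p under 0.05 were made for the members only, with no share of all genes. The labels do not say that replicates are separate animals, so p-values measure the spread between libraries. The fits were tested on simulated data. Named genes were, by rule, the 5 largest falls and rises per comparison among members with a mean of at least 5 counts, a fixed set of 12 (Rplp0, Rplp1, Rplp2, Rpsa, Rps6, Rpl3, Rpl7, Rps12, Rps27a, Rpl41, Rpl10 and Rps4x), the paralogs, the 5 highest and lowest per tissue, those called most often, and the 5 of widest range between tissues; others were chosen after their values were seen, and a few genes are not reported here. Reads shared with pseudogenes and paralogs make single members uncertain. Between hypothalamus and thyroid, deviations from group means of libraries with equal numbers correlated above 0.1 in 45 of 45 pairs (lowest 0.102, median 0.206). These pairs also share well and barcode. Pituitary and liver, the other tissues that share wells and barcodes, had 17 of 37 pairs above 0.1 (median 0.0874, highest 0.476). A shared number and a shared well and barcode cannot be told apart. Promoters came from RefSeq (GRCr8), not the listed rn6, and no count coordinates were used.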

Additional observations from a re-analysis of the deposited data

Results flagged for a closer look

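The liver combination library numbered 42 (281894 counts) stood apart from the other 9 of its group. Its summed share was 10.6%, against 4.94% in the next library (gap over range 0.791), with 5.78% in large subunit genes against 3.00% (0.772) and 4.82% in small subunit genes against 1.93% (0.810). In 15 such checks of groups of 8 to 10 libraries, chance alone would single out about 1 in 20. The sums over all, large and small subunit genes are nested, so these checks are not independent. The flags concern 1 library and are not separate results. Liver marker genes took 9.86% of its counts, within the 9.60% to 13.5% of its group. The PFOS response differed between thyroid and liver for 19 members and between hypothalamus and pituitary for 2, by tests of the difference itself. With log2 depth as a covariate, which has a slope common to both tissues of a pair, these counts were 5 and 0. Thinned to 100000 counts they were 0 and 0.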

How the results depend on the processing

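Of 37 counts of called members, 20 were 0, which says little about stability; for the others, 78 of 116 alternative values stayed within 1.5 times the count. In the 5 treatment comparisons with falls, no alternative called a member higher. Shares of all genes called are not given for the alternatives, apart from log2 depth in these 5 comparisons. Between tissues the split turned in places: hypothalamus against liver went from 29 higher and 16 lower to 15 and 39 with log2 depth and to 12 and 26 at 500000 counts, and pituitary against thyroid from 4 and 46 to 15 and 31 and to 13 and 19. In fits between tissues the log2 depth covariate has a slope common to the tissues. In the hypothalamus, the 50 calls for PFOS against vehicle became 28 without a low-count filter, 28 at a minimum depth of 500000 counts, 18 thinned to the lowest library and 0 thinned to 100000 counts or in the common depth range; with log2 depth, 1. The combination against vehicle (69) became 8 with log2 depth, 2 thinned to 100000 counts and 0 in the common range. The combination against vancomycin (67) became 38 thinned to the lowest library, 7 thinned to 100000 counts and 1 in the common range. In the thyroid, 43 calls against vehicle became 16 with barcode GC as a covariate, 2 thinned to 100000 counts and 0 with log2 depth or in the common range. The 52 against vancomycin became 29, 6, 0 and 0 under the same settings. Barcode GC, the number of G and C bases in a barcode, was 1 in every thyroid vehicle, vancomycin and PFOS library. It varied only within the combination group (1 to 3). In the thyroid this covariate therefore acts only through combination libraries and cannot show a dependence on barcode GC in general. Thyroid PFOS (0) became 2 with DESeq2, 1 with barcode GC and 1 thinned to the lowest library. Slopes on depth became 0 (hypothalamus) and 3 (thyroid) when thinned to 100000 counts, and 0 (thyroid) at 500000. The 2 liver slopes became 20 without a filter, 24 without combination replicate 42, 1 with barcode GC, and 0 at 500000 or thinned. Under vehicle, hypothalamus against pituitary (35) became 64 with log2 depth and 62 at 500000, pituitary against thyroid (50) became 32 and thyroid against liver (67) became 40 at 500000. The PFOS difference between hypothalamus and pituitary (2) became 0 with log2 depth or thinned, and that between thyroid and liver (19) became 5 with log2 depth and 0 thinned. With the library number as a replicate block these were 1 and 0; those tissues share only a number, with median correlations of 0.0559 and 0.0319 between same-numbered libraries. Between hypothalamus and thyroid, where libraries with equal numbers also share well and barcode, the block moved the vehicle count from 62 to 63 and left the PFOS difference at 0. Of 250 values for 25 named falls, 91 no longer passed and 1 reversed, thyroid Rpl39 for the combination against vehicle, at 0.0303 in the common depth range. The cause was not tested, except that thinning and range limits leave fewer counts or libraries. Common-range, lowest-library and leave-out settings were chosen after seeing the data.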
